A study of Mus musculus with 157 samples.

Results

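The HoxB genes Hoxb1 to Hoxb9 and Hoxb13 are the 10 mouse genes described here, taken by symbol out of 23643 genes with a symbol in the table of total RNA polymerase II (Pol II) at start sites. They are represented by 11 transcripts, because Hoxb3 is listed with 2. Hox genes encode homeodomain transcription factors that give cells their position along the head-to-tail axis. Within a cluster the genes lie in the order in which they are switched on in the embryo, those at the 3' end (Hoxb1) earlier and in more anterior regions than those at the 5' end. Retinoic acid (RA), a vitamin A derivative bound by the nuclear receptors RAR and RXR, switches on the 3' Hox genes of embryonic stem (ES) cells, which hold the clusters under Polycomb repression, often with Pol II already at their promoters.

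The cells were wildtype E14 mouse ES cells, a single established line, cultured with fetal bovine serum and leukaemia inhibitory factor (LIF) on gelatin. Untreated cells (0 h) were compared with cells kept in 1 µM RA for 2, 4, 6, 24, 48 or 72 h. Crosslinked chromatin was immunoprecipitated with antibodies to total Pol II (NTD, through the N-terminal domain of its largest subunit), to Pol II phosphorylated at serine 5 of the C-terminal repeat (Ser5p, enriched at promoters) or at serine 2 (Ser2p, enriched along transcribed genes). Reads were counted within 1 kb on either side of each start site (NTD and Ser5p) and over gene bodies (NTD and Ser2p), in 53 libraries out of the 157 samples of the series. NTD had 2 libraries at 0, 2, 24 and 72 h and 3 at 4, 6 and 48 h, and the phosphorylated forms had the same numbers with 3 at 2 h. Whether the replicates of a time were separate cultures is not stated, and the p-values therefore cover only the variation among these libraries, part of which may be technical. Levels are in CPM, counts per 1000000 counts of the library in that table. A log2 change is given with its standard error, and a gene was called where the Benjamini-Hochberg adjusted p of edgeR's quasi-likelihood test over all transcripts of the table was under 0.05. The window around a start site has the same length for every gene, so levels there can be set side by side between genes. Levels over gene bodies cannot, except per length.

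Libraries totalled 1088159 to 3347830 counts at start sites and 11684907 to 28745658 over gene bodies. The ES cell label was met at 0 h, where 7 ES markers (Pou5f1, Nanog, Sox2, Esrrb, Zfp42, Klf4 and Tdgf1) summed to 613 to 773 CPM of NTD at start sites, against 32.3 to 49.5 CPM for 6 fibroblast markers. At 48 h the ES sum was 340 to 406 CPM and 4 of the 7 were called lower. Markers of primitive endoderm over gene bodies summed to 175 to 189 CPM of NTD at 0 h and 332 to 484 CPM at 72 h, where 5 of 6 were called higher. No marker was at 0 in any group. In bulk libraries a change in the share of cells that use a gene and a change in signal per cell cannot be told apart, and the part of these shifts in the HoxB values was not tested.

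Hoxb1 to Hoxb9 occupy 96.9 kb of chromosome 11, positions 96271330 to 96368254 of mm10 (GRCm38.p6), with Hoxb9 at the low end and Hoxb1 at the high end. Hoxb13 lies 74.7 kb beyond Hoxb9, at 96194316 to 96196610. From Hoxb1 the ends of the genes follow at 14.2 kb (Hoxb2), 20.3 kb (Hoxb3), 46.6 kb (Hoxb4), 62.1 kb (Hoxb5), 66.7 kb (Hoxb6), 78.1 kb (Hoxb7), 82.9 kb (Hoxb8) and 91.7 kb (Hoxb9). ChIP reads carry no strand. Signal of Hoxb2 or Hoxb3 cannot be told apart from that of the noncoding gene Hoxb3os, nor Hoxb5 or Hoxb6 from Hoxb5os, and Hoxb4 and Mir10a lie within the span that RefSeq gives to Hoxb3.

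The RefSeq promoter table holds 3 of the members, and they stand for the kinds of behaviour described below. They are Hoxb1, where Ser5p rose, Hoxb4, where total Pol II rose and Ser5p was not called, and Hoxb8, where Ser5p fell. Each sequence runs from 250 bases before to 50 bases after the start site, on the plus strand of GRCm38.p6, with motif matches in capitals.
Hoxb1 (chr11:96365508-96365807): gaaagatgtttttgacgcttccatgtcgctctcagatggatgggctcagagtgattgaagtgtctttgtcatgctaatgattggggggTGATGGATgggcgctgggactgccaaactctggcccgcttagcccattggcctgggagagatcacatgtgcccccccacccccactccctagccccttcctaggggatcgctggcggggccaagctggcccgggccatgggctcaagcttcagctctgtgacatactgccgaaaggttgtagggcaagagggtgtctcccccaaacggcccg
Hoxb4 (chr11:96318017-96318316): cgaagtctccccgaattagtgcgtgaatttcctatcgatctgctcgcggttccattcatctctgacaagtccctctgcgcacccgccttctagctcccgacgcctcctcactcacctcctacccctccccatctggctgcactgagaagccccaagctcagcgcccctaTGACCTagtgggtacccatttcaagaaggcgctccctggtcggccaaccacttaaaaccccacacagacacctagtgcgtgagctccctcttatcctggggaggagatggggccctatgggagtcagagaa
Hoxb8 (chr11:96281655-96281954): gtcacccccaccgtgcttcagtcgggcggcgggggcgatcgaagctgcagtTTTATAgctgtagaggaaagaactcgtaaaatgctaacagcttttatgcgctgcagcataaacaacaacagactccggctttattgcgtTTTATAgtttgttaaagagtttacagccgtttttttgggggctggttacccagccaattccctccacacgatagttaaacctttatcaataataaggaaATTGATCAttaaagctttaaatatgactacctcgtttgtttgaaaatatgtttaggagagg
Both strands were searched for the short sites of RAR and RXR (AGGTCA and GGTTCA), for repeats of AGGTCA with 5 or 2 bases between, and for GGTTCA followed after 5 bases by AGTTCA. The PBX-HOX motif TGATNNAT, its narrower form TGATGGAT, which it overlaps, and TATAAA were searched too. Hoxb1 holds TGATGGAT at position -162, a form found in 0.767% of the 32851 promoters of the table, while TGATNNAT is in 8.85%. PBX and HOX proteins bind DNA as pairs, and HOXB1 is known to act on its own gene through such sites. Hoxb4 holds AGGTCA at -81, on the opposite strand (TGACCT in the printed sequence), as do 16.3% of promoters. Hoxb8 holds TATAAA on the opposite strand at -199 and -110 (13.6% of promoters have it) and TGATNNAT on the opposite strand at -11. GGTTCA (10.4% of promoters) and the repeats are not in these 3 windows. CG dinucleotides numbered 10, 14 and 13 in Hoxb1, Hoxb4 and Hoxb8, with a median of 7 over all promoters. A match describes the letters and is not a measured binding site.

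Before RA, Ser5p at the HoxB promoters ranged from near the median of all genes at Hoxb1 to well above it at Hoxb9. The series lists no input labelled like the Pol II samples (xChIP). Its inputs are labelled nChIP and were not used, so the share of background in these levels was not tested. At 0 h Ser5p was lowest at Hoxb1, with 17.7 and 18.3 CPM in the 2 libraries (replicates 1 and 4), next to a median of 18.5 CPM over all genes. Hoxb9, at the other end of the cluster, had the highest level, with 44.7 and 52.8 CPM, which placed it at percentile 86.7 of all genes. Between them stood Hoxb13 (18.2 and 30 CPM), Hoxb3 (24.6 and 29.4 CPM), Hoxb2 (19.2 and 39.1 CPM), Hoxb5 (27 and 48.3 CPM), Hoxb4 (27.5 and 48.3 CPM), Hoxb6 (27 and 50.9 CPM), Hoxb8 (29.5 and 48.9 CPM) and Hoxb7 (26.5 and 58.7 CPM). Neighbours in this order had overlapping ranges. Both libraries of Hoxb1 stood below those of Hoxb2 to Hoxb9. At 7 of the 10 genes replicate 4 was 1.65 to 2.21 times replicate 1, where the median over all tested transcripts was 1.01. The remaining 3, Hoxb1, Hoxb3 and Hoxb9, had ratios of 1.03 to 1.19.

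**Figure D1:**
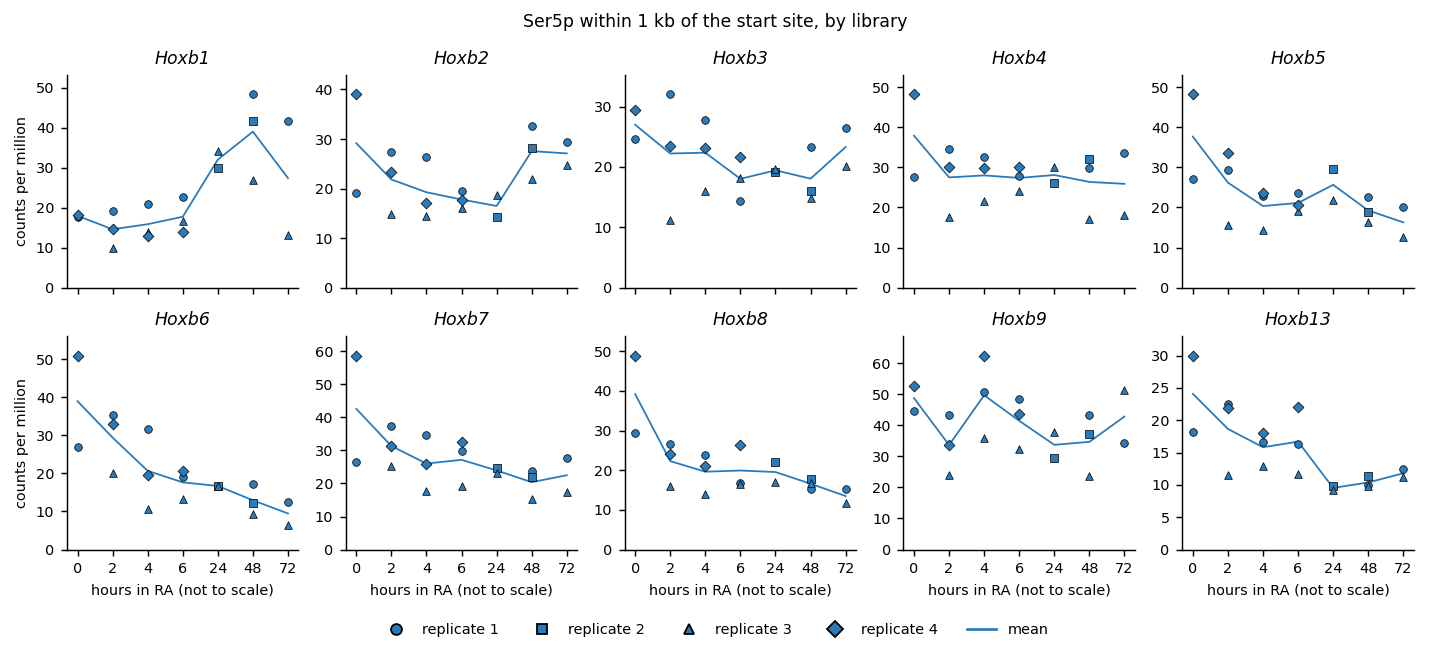
Ser5p within 1 kb of the start site of each HoxB gene, in CPM (linear axis from 0), against hours in RA (not to scale), with 1 point per library shaped by replicate number and a line through the means. Hoxb1 rises from 18 CPM at 0 h to 39.1 CPM at 48 h, while Hoxb6 falls from 38.9 CPM to 9.45 CPM at 72 h.

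The Ser5p time course asked which HoxB promoters gained or lost the initiating form of Pol II under RA. Hoxb1 was the only member that gained it. Hoxb5, Hoxb6, Hoxb7 and Hoxb8, which lie side by side in the 5' part of the cluster, and the distant Hoxb13 were called lower. Most of these calls were lost without 0 h replicate 4. Hoxb2, Hoxb3, Hoxb4 and Hoxb9 were not called at any time.

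Hoxb1, the 3'-most gene, needed for the identity of a hindbrain segment, stayed at 10 to 22.8 CPM of Ser5p in all 9 libraries of 2 to 6 h. It had 30 and 34.1 CPM at 24 h, 48.5, 41.7 and 27 CPM at 48 h, and 41.8 and 13.1 CPM at 72 h. All libraries of 24 and 48 h were above those of 0 h, and the 72 h libraries fell on either side of them. The log2 change was 1.04 ± 0.31 at 24 h (adjusted p = 0.0369, 2.06-fold) and 1.20 ± 0.29 at 48 h (adjusted p = 0.00418, 2.30-fold). At these times 3.59% and 6.84% of all transcripts were called higher. At 72 h it was 0.66, with an adjusted p = 0.23. The call at 48 h was kept in each of the 18 fits that left out 1 library, with log2 changes of 1.08 to 1.41, and the authors' deposited table also gives 48 h as its time (adjusted p = 0.00438). The call at 24 h was lost without either 0 h library or without 24 h replicate 3, where the log2 change was still 0.88 to 1.18 over all fits and adjusted p reached 0.319. In percentiles of all genes Hoxb1 moved from 48.6 at 0 h to 78.4 at 48 h.

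Hoxb6 had the largest loss of the 10. Its Ser5p was 27 and 50.9 CPM at 0 h, 31.7, 10.7 and 19.6 CPM at 4 h, 19.1, 13.2 and 20.6 CPM at 6 h, 16.7 CPM in both libraries at 24 h, 17.3, 12.2 and 9.31 CPM at 48 h, and 12.4 and 6.54 CPM at 72 h. From 6 h on every library was below both 0 h libraries. The log2 change was -0.99 ± 0.31 at 24 h (adjusted p = 0.0448), -1.49 ± 0.30 at 48 h (adjusted p = 6.77e-04) and -1.92 ± 0.36 at 72 h (adjusted p = 3.46e-04). In these contrasts 3.14%, 5.37% and 3.87% of transcripts were called lower. The call at 72 h was kept in each of the 18 fits without 1 library (log2 change -2.32 to -1.43), and the authors' deposited table gives it an adjusted p = 0.0172. In percentiles of all genes Hoxb6 moved from 80.3 at 0 h to 44.4 at 48 h, below Hoxb1 where it had been above.

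Hoxb8, used in the trunk of the embryo, had 29.5 and 48.9 CPM of Ser5p at 0 h, 15.3, 17.7 and 16.8 CPM at 48 h and 15.3 and 11.7 CPM at 72 h. These did not overlap, and the log2 change was -1.10 ± 0.25 at 48 h (adjusted p = 0.00278) and -1.40 ± 0.29 at 72 h (adjusted p = 0.00143). Hoxb5 fell by 0.85 at 48 h (adjusted p = 0.0234) and by 1.08 at 72 h (adjusted p = 0.0144), from 27 and 48.3 CPM to 20 and 12.6 CPM. Hoxb7 fell by 0.93 at 48 h (adjusted p = 0.0137), from 26.5 and 58.7 CPM to 23.9, 21.9 and 15.4 CPM, and at 72 h it was 0.79 lower with an adjusted p = 0.0811. Hoxb13, which lies apart from the cluster and is used in the tail end of the embryo, fell by 1.11 at 24 h (adjusted p = 0.0334) and by 1.07 at 48 h (adjusted p = 0.0116). Its 24 and 48 h libraries held 9.26 to 11.4 CPM, all under the 18.2 and 30 CPM of 0 h.

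These losses rested on the untreated libraries and on the scaling. With the authors' scale factors 4 of the 10 were called, Hoxb6 and Hoxb8 at 48 and 72 h, and the others had log2 changes of -0.88 to -0.52. In the authors' deposited table the adjusted p of Hoxb8 is 0.171 at 48 h and 0.0852 at 72 h. For Hoxb5 it is 0.506 and 0.317 at these times, for Hoxb7 0.413 at 48 h, and for Hoxb13 none is given. Without 0 h replicate 4, which was the higher at these promoters (adjusted p up to 0.691 in the fits without 1 library), the 10 calls of a fall came down to 1, Hoxb6 at 72 h (log2 change -1.43, adjusted p = 0.0389, where 0.742% of transcripts were called lower), and without 0 h replicate 1 they rose to 22 (2.29% over all times). The calls of Hoxb7 and Hoxb13 at 48 h were also lost without 48 h replicate 3, that of Hoxb5 at 48 h without 48 h replicate 2 or 3, and that of Hoxb5 at 72 h without 72 h replicate 3. Hoxb13 at 24 h was lost without either 24 h library, and Hoxb6 at 24 h without either 24 h library, replicate 4 of 2 or 4 h or replicate 1 of 6 h. Ser5p also fell at 48 h at markers of other lineages, at 4 of 6 primitive endoderm markers (summing to 141 to 205 CPM at 0 h and 91.4 to 128 CPM at 48 h, with Dab2 of that list called higher), 3 of 6 neural markers (150 to 249 and 107 to 136 CPM) and 2 of 5 mesoderm markers (121 to 189 and 78.6 to 92.4 CPM). Their part in the HoxB losses was not tested. Hoxb9, the most 5' gene of the cluster proper, had 29.5 to 37.9 CPM at 24 h, 23.7 to 43.2 CPM at 48 h and 34.2 to 51.4 CPM at 72 h, with log2 changes of -0.40 to -0.02 at these times. Hoxb4 held 17.2 to 33.6 CPM from 24 h on, with log2 changes of -0.43 to -0.18, and Hoxb2 held 21.9 to 32.6 CPM at 48 h with a change of 0.04. In the 30 tests of 2 to 6 h against 0 h edgeR and DESeq2 called 0 members, and 10 had an unadjusted p under 0.05, all of them lower. Over all transcripts 0.0336% of such tests were called.

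Total Pol II at start sites could be read only after its libraries were compared with each other. At Hoxb1, NTD was 9.79 CPM in replicate 1 and 60.5 CPM in replicate 4 of the untreated cells. The same held at Hoxb2 (8.71 and 36.2 CPM), Hoxb3 (8.16 and 70.9 CPM) and Hoxb5 (11.4 and 69.3 CPM), so that replicate 4 was 4.16 to 8.68 times replicate 1. At the other 6 members the ratio was 0.602 to 1.7. A ratio of 4 or more was found at 0.383% of all tested transcripts in that table. Ser5p in the 0 h library of the same number stood at 1.03 to 2.04 times replicate 1 at these 4 genes. In the table of gene bodies NTD of replicate 4 was 11.9 CPM against 2.03 CPM at Hoxb1 and 7.36 against 1.4 CPM at Hoxb5. The 72 h replicate 3 was also above its replicate 1 at these 4 promoters, 1.97 to 4.76 times (58.6 and 29.7 CPM at Hoxb1, 48.3 and 10.2 CPM at Hoxb5). The cause was not tested. The second, longer Hoxb3 transcript had 8.16 and 9.24 CPM at its start site at 0 h.

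**Figure D2:**
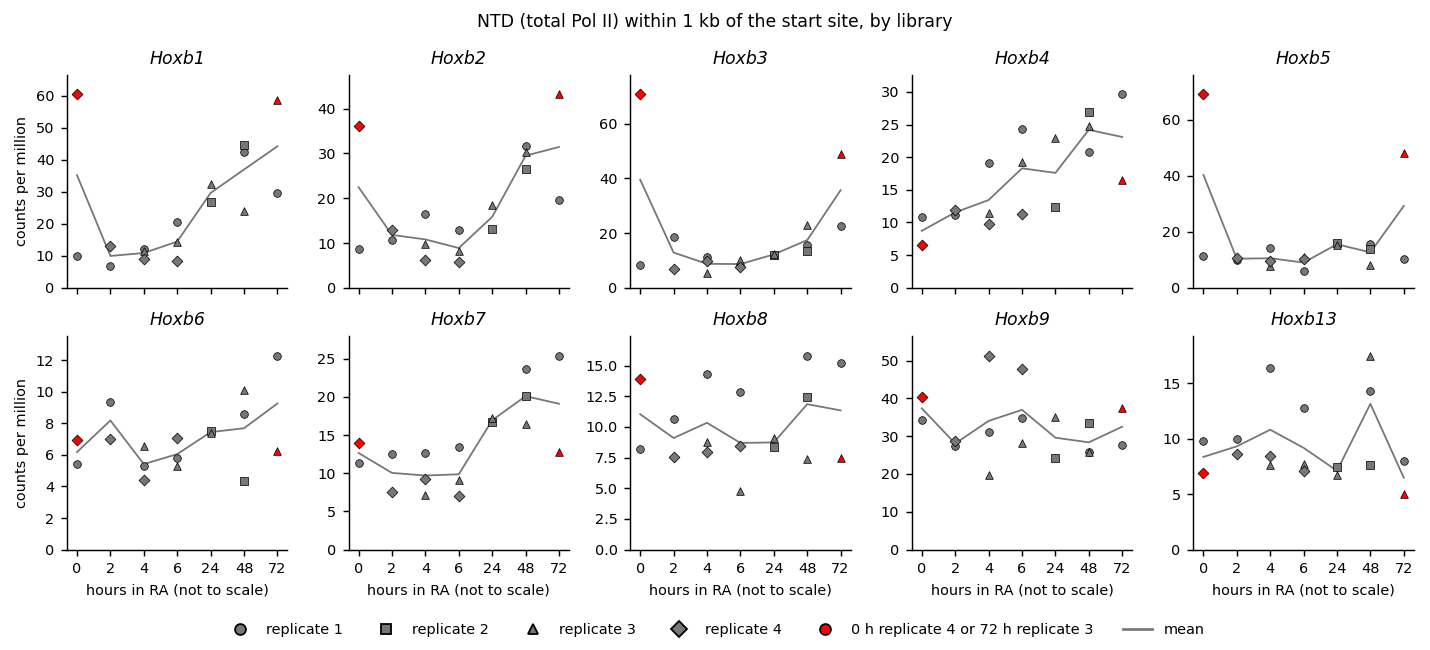
NTD within 1 kb of the start site of each HoxB gene, in CPM (linear axis from 0), against hours in RA (not to scale), with 1 point per library shaped by replicate number and a line through the means. Red points are 0 h replicate 4 and 72 h replicate 3, which reach 36.2 to 70.9 CPM and 43.3 to 58.6 CPM at Hoxb1, Hoxb2, Hoxb3 and Hoxb5 and lie among the other libraries at Hoxb7 and Hoxb9. At Hoxb4 0 h replicate 4 is the lowest of all, at 6.55 CPM.

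With all 17 libraries, Hoxb4, a regulator also known for expanding blood stem cells, was the only promoter that gained total Pol II. It had 10.9 and 6.55 CPM at 0 h, 24.4, 19.2 and 11.3 CPM at 6 h, 12.3 and 22.9 CPM at 24 h, 20.8, 27 and 24.8 CPM at 48 h, and 29.7 and 16.5 CPM at 72 h. From 6 h on every library was above both 0 h libraries. The counts were low, with 20 and 17 reads at 0 h and 27 to 74 reads at 48 h. The 0 h mean stood at percentile 40.1 of all genes. The log2 change was 1.12 at 6 h (adjusted p = 0.136), 1.15 at 24 h (adjusted p = 0.0726), 1.51 ± 0.33 at 48 h (adjusted p = 0.00105, 2.84-fold) and 1.38 ± 0.35 at 72 h (adjusted p = 0.00589). At 48 and 72 h 4.66% and 5.66% of transcripts were called higher. Without 0 h replicate 4, which at Hoxb4 was the lowest of the 17 libraries, it was 1.23 at 48 h (adjusted p = 0.0792) and 1.09 at 72 h (adjusted p = 0.148), and without 72 h replicate 1 the 72 h call was also lost. The authors' deposited table gives 48 h as the time of this promoter, with an adjusted p = 0.0974 at 48 h and 0.147 at 72 h.

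In the same fit Hoxb1 (2 and 4 h), Hoxb2 (6 h), Hoxb3 (4, 6, 24 and 48 h) and Hoxb5 (2, 4, 6 and 48 h) were called lower, 11 calls in all. Of all transcripts 0.267%, 0.436%, 0.373%, 0.581% and 4.92% were called lower at 2, 4, 6, 24 and 48 h. Without 0 h replicate 4 none of the 11 was left (0.558% of all tests against 0 h were then called lower), and the values of Hoxb3 became 0.19, 0.18, 0.72 and 1.07. DESeq2 called 0 of them with all libraries. No member was called higher in the first 6 h by edgeR or DESeq2, 1 had an unadjusted p under 0.05, and 0.227% of all tests were called. In 9 of the 11 the treated libraries overlapped those of 0 h. The calls of Hoxb3 at 4 and 6 h and of Hoxb5 at 4, 6 and 48 h were lost without this library alone, and the other 6 were kept in 7 to 15 of the 17 fits without 1 library.

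Without both 0 h replicate 4 and 72 h replicate 3, gains of total Pol II appeared from the 3' end of the cluster. The 0 h library left out was 4.16 to 8.68 times the other at Hoxb1, Hoxb2, Hoxb3 and Hoxb5. Leaving it out lowers the untreated level of these genes, so their changes against 0 h depend on that choice. Untreated cells and cells at 72 h then have 1 library each, assumed to vary like those of the other times. Hoxb1 had 26.9 and 32.3 CPM at 24 h and 42.3, 44.5 and 23.9 CPM at 48 h, against 9.79 CPM at 0 h and 6.85 to 20.4 CPM in the 8 libraries of 2 to 6 h, with no overlap. Its log2 change was 1.74 ± 0.39 at 24 h (adjusted p = 0.0109), 2.03 ± 0.37 at 48 h (adjusted p = 8.19e-05) and 1.56 ± 0.46 at 72 h (adjusted p = 0.0467), the last a comparison of 1 library (29.7 CPM) with 1 library. In this fit 0.497%, 2.87% and 1.13% of transcripts were called higher at these times. Hoxb2, expressed in the hindbrain like Hoxb1, rose by 1.79 ± 0.39 at 48 h (adjusted p = 0.00112), with 31.6, 26.6 and 30.3 CPM against 8.71 CPM, and at 24 h its change was 1.03 (adjusted p = 0.241). Hoxb4 rose by 1.24 ± 0.38 at 48 h (adjusted p = 0.0379). Hoxb3 stood at 1.06 at 48 h with an adjusted p = 0.15, and Hoxb5, Hoxb6, Hoxb7, Hoxb8, Hoxb9 and Hoxb13 were not called. The 24 against 6 h estimate does not use the 0 h libraries, and in this fit Hoxb1 was 1.16 ± 0.24 higher at 24 h. Its test rests on a spread estimated over all libraries of a fit. The call made in this fit was therefore not independent of leaving out the 2 libraries. With all libraries the same contrast gave 1.12 and an adjusted p = 0.326.

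Leaving out 0 h replicate 4 alone kept the 72 h replicate 3 and gave 6 gains. Hoxb1 and Hoxb2 were called at 48 h (2.02 and 1.79, adjusted p = 0.0021 and 0.00954) and at 72 h (2.38 and 2.08, adjusted p = 2.13e-04 and 0.00163). Hoxb3 (2.35, adjusted p = 4.18e-04) and Hoxb5 (1.67, adjusted p = 0.0213) were called at 72 h. At 48 and 72 h 2.12% and 3.56% of transcripts were then called higher. The gains of Hoxb3 and Hoxb5 were thus seen only with 72 h replicate 3 included.

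Over gene bodies, the comparison asked whether Pol II also entered the HoxB genes. Hoxb4 was the steadiest gain. Its NTD was 2.22 and 1.87 CPM at 0 h, 4.38, 4.98 and 4.6 CPM at 6 h, 5.33 and 7.56 CPM at 24 h, 6.3, 10.5 and 5.82 CPM at 48 h and 5.76 and 5 CPM at 72 h. All libraries from 2 h on were above those of 0 h. The log2 change was 1.16 at 6 h (adjusted p = 0.187), 1.67 ± 0.28 at 24 h (adjusted p = 0.0162), 1.90 ± 0.26 at 48 h (adjusted p = 8.82e-04, 3.74-fold) and 1.42 ± 0.28 at 72 h (adjusted p = 0.0101). At 24, 48 and 72 h 0.261%, 1.72% and 2.87% of transcripts were called higher. The call at 48 h was kept in each of the 17 fits without 1 library, and also when 0 h replicate 4 and 72 h replicate 3 were both left out (1.79, adjusted p = 0.0182). The calls at 24 and 72 h were lost without either 0 h library, and the first also without 24 h replicate 3 (adjusted p up to 0.444 and 0.124). In the authors' deposited table the adjusted p of Hoxb4 is 0.0269 at 6 h and 4.13e-05 at 48 h, and its time is 24 h.

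Hoxb2 had 2.22 and 4.4 CPM of NTD over its body at 0 h and 9.67, 13.9 and 7.62 CPM at 48 h, with no overlap and a log2 change of 1.64 ± 0.32 (adjusted p = 0.00942). Without 0 h replicate 1 its adjusted p was 0.116, and without both of these NTD libraries it rose by 2.25 (adjusted p = 0.00545). Hoxb8 rose by 1.01 ± 0.20 at 48 h (adjusted p = 0.0109), from 2.22 and 1.98 CPM to 3.81, 5.09 and 3.68 CPM. This is a gain of total Pol II in the body of a gene whose promoter Ser5p fell, and it was lost without either 0 h library (adjusted p up to 0.189). Without both of these NTD libraries Hoxb8 was not called. In that fit Hoxb1 (2.48, adjusted p = 0.0355) and Hoxb3 (1.39, adjusted p = 0.0126) were called at 48 h beside Hoxb2 and Hoxb4, where 0.761% of transcripts were called higher. Those 4 are the 4 genes at the 3' end. Over the bodies of Hoxb1, Hoxb2 and Hoxb3 the 0 h library left out was 5.86, 1.98 and 2.32 times the other. Their changes in that fit therefore depend on leaving it out. The long Hoxb3 transcript, with a body of 24.8 kb, had 17.7 ± 4.40 CPM (SD, n = 2) at 0 h and 31.1 ± 7.65 CPM (SD, n = 2) at 72 h, a log2 change of 0.85 by edgeR (adjusted p = 0.0452).

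Per length, in the authors' deposited FPKM, the lower of the 2 NTD libraries at 0 h ranged among the members from 0.743 (Hoxb5) to 2.35 (Hoxb9). At 48 h Hoxb1 (6.20 ± 3.43, SD, n = 3) and Hoxb2 (6.13 ± 1.96) were highest, followed by Hoxb4 (3.14 ± 1.11), Hoxb9 (2.61 ± 0.766) and Hoxb3 (2.39 ± 0.624). Hoxb5 to Hoxb8 had 1.35 to 1.72 and Hoxb13 1.12. Hoxb1 and Hoxb2 did not differ beyond their spread, nor did Hoxb4, Hoxb9 and Hoxb3. Hoxb9 already had 2.68 ± 0.471 (SD, n = 2) at 0 h, and its log2 change in counts at 48 h was -0.03.

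Ser2p, the elongating form, rose over the bodies of Hoxb1, Hoxb2 and Hoxb4, 3 of the 4 genes at the 3' end. Hoxb1 had 2.1 and 1.74 CPM at 0 h, 2.23 to 2.57 CPM at 6 h, 3.9 and 5.79 CPM at 24 h, 5.01, 7.86 and 2.8 CPM at 48 h and 3.15 and 3.4 CPM at 72 h. Libraries from 24 h on were all above those of 0 h. The log2 change was 1.35 ± 0.34 at 24 h (adjusted p = 0.0288) and 1.46 ± 0.32 at 48 h (adjusted p = 0.0313), and 0.78 at 72 h (adjusted p = 0.274). Hoxb2 had 1.46 and 2.2 CPM at 0 h, 3.23 and 4.73 CPM at 24 h and 4.58, 6.13 and 3.43 CPM at 48 h. It rose by 1.12 ± 0.28 at 24 h (adjusted p = 0.0279) and by 1.36 ± 0.26 at 48 h (adjusted p = 0.0130). Hoxb4 rose by 0.94 ± 0.24 at 24 h (adjusted p = 0.0300), from 2.47 and 2.7 CPM to 4.57 and 5.3 CPM. Of all transcripts 9.01% at 24 h and 1.41% at 48 h were called higher. Hoxb3 had log2 changes of 0.60 at 24 h (adjusted p = 0.056) and 0.59 at 48 h. Hoxb9, at the other end of the cluster, had a change of like size, 0.62 at 24 h (adjusted p = 0.0752), with 6.5 and 5.73 CPM at 0 h and 8.25 and 10.3 CPM at 24 h, which did not overlap. Hoxb5, Hoxb6, Hoxb7, Hoxb8 and Hoxb13 had changes of -0.45 to 0.22 at 24 h, and Hoxb8 one of 0.60 at 48 h (adjusted p = 0.0935). All 5 calls were lost without either 0 h library, the 24 h calls also without 24 h replicate 3 (Hoxb4 also without replicate 2), and those of 48 h without 48 h replicate 2, with adjusted p up to 0.29. Over all fits without 1 library their log2 changes were 0.80 to 1.75. In the authors' deposited table the adjusted p of Hoxb1 is 0.352 at 24 h and 0.117 at 48 h, and that of Hoxb4 0.503 at 24 h. For Hoxb2 it is 0.447 at 24 h and 0.034 at 48 h.

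**Figure D3:**
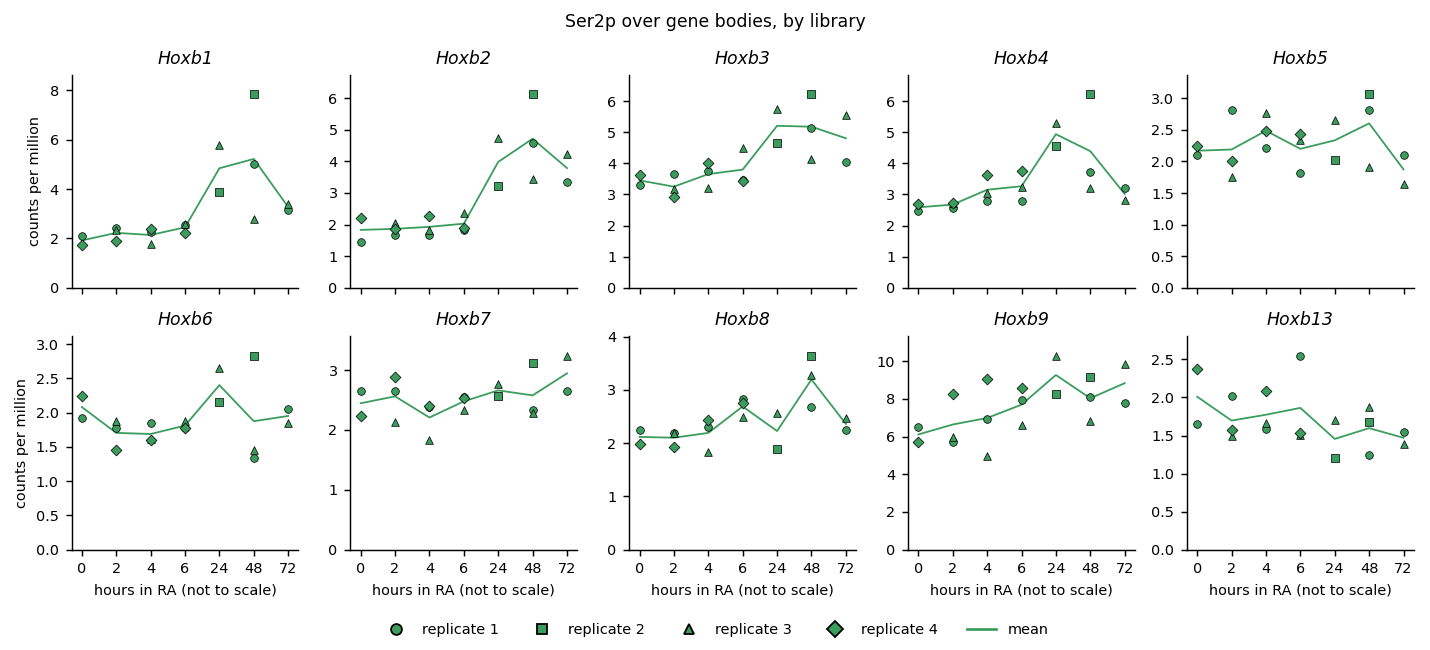
Ser2p over the body of each HoxB gene, in CPM (linear axis from 0), against hours in RA (not to scale), with 1 point per library shaped by replicate number and a line through the means. Hoxb1 and Hoxb2 stay near 2 CPM to 6 h and reach means of 5.22 and 4.71 CPM at 48 h, while Hoxb7 holds 1.83 to 3.24 CPM throughout.

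No member passed edgeR's test in the first 6 h with Ser2p. In its 30 tests of 2 to 6 h against 0 h, 0 had an unadjusted p under 0.05, DESeq2 also called 0, and so did edgeR over all transcripts (0%). For NTD over bodies the same 30 tests gave 0 calls by edgeR, 1 by DESeq2, and 2 higher and 3 lower at an unadjusted p under 0.05, with 0.0293% of all tests called. Between neighbouring later times (24 against 6, 48 against 24 and 72 against 48 h) edgeR called 0 members in each of the 4 tables. At an unadjusted p under 0.05 there were 6 higher and 1 lower for NTD at start sites, 2 and 2 for Ser5p, 7 and 1 for NTD over bodies and 5 and 3 for Ser2p. DESeq2 called 1 of these, higher, for NTD over bodies. Of all tests between these times edgeR called 0.588%, 0.199%, 0.517% and 0.674% in the 4 tables. Without both of these NTD libraries Hoxb2 was called 24 against 6 h over its body (1.50, adjusted p = 0.0466, where 0.0873% of transcripts were called higher).

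Timing along the cluster can be put together from these calls. By the rule that an onset is the first called gain that is also called at the next time, Hoxb1 had its onset at 24 h for Ser5p at its promoter and for Ser2p in its body, Hoxb2 at 24 h for Ser2p, and Hoxb4 at 48 h for NTD at its promoter and at 24 h in its body. Hoxb3, Hoxb5, Hoxb6, Hoxb7, Hoxb9 and Hoxb13 had no called gain with all libraries (the long Hoxb3 transcript had 1, NTD at 72 h), and Hoxb8 had 1, NTD in its body at 48 h. The 24 h call of Hoxb1 for Ser5p was not made by DESeq2, and the authors' deposited table gives 48 h. For Ser2p the deposited time of Hoxb2 is also 48 h, and Hoxb1 has none. NTD in the body of Hoxb4 was 4.38 to 4.98 CPM at 6 h, above the 1.87 and 2.22 CPM of 0 h. EdgeR did not call it at 6 h. In the authors' deposited table its adjusted p at 6 h is 0.0269, and its time is 24 h. The 24 h calls, that of Ser5p included, were each lost without either 0 h library or without 24 h replicate 3 of the same antibody. The times sampled jump from 6 to 24 h, so an order within that interval cannot be read. The highest mean of Hoxb1 was at 48 h for Ser5p (39.1 CPM), NTD bodies (11 CPM) and Ser2p (5.22 CPM). Over the 9 genes of the cluster the Spearman correlation of distance from Hoxb1 with the log2 change of 24 against 6 h was -0.68 for NTD at start sites, -0.67 for Ser5p, -0.70 for NTD bodies and -0.82 for Ser2p. Negative values mean larger changes toward Hoxb1. This contrast had the most negative value of the 9 contrasts in each table but that of Ser5p (2 against 0 h, -0.73). For 48 against 0 h it was -0.02, -0.67, -0.47 and -0.63. It was positive for NTD at start sites at 2, 4, 6 and 24 h against 0 h (0.43, 0.57, 0.52 and 0.25), for NTD bodies at 2, 4 and 6 h (0.58, 0.58 and 0.53), and from 48 to 72 h for Ser5p (0.20) and Ser2p (0.60). These 9 points share libraries, and neighbours share flanking chromatin and in part reads, so they describe these data only.

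**Figure D4:**
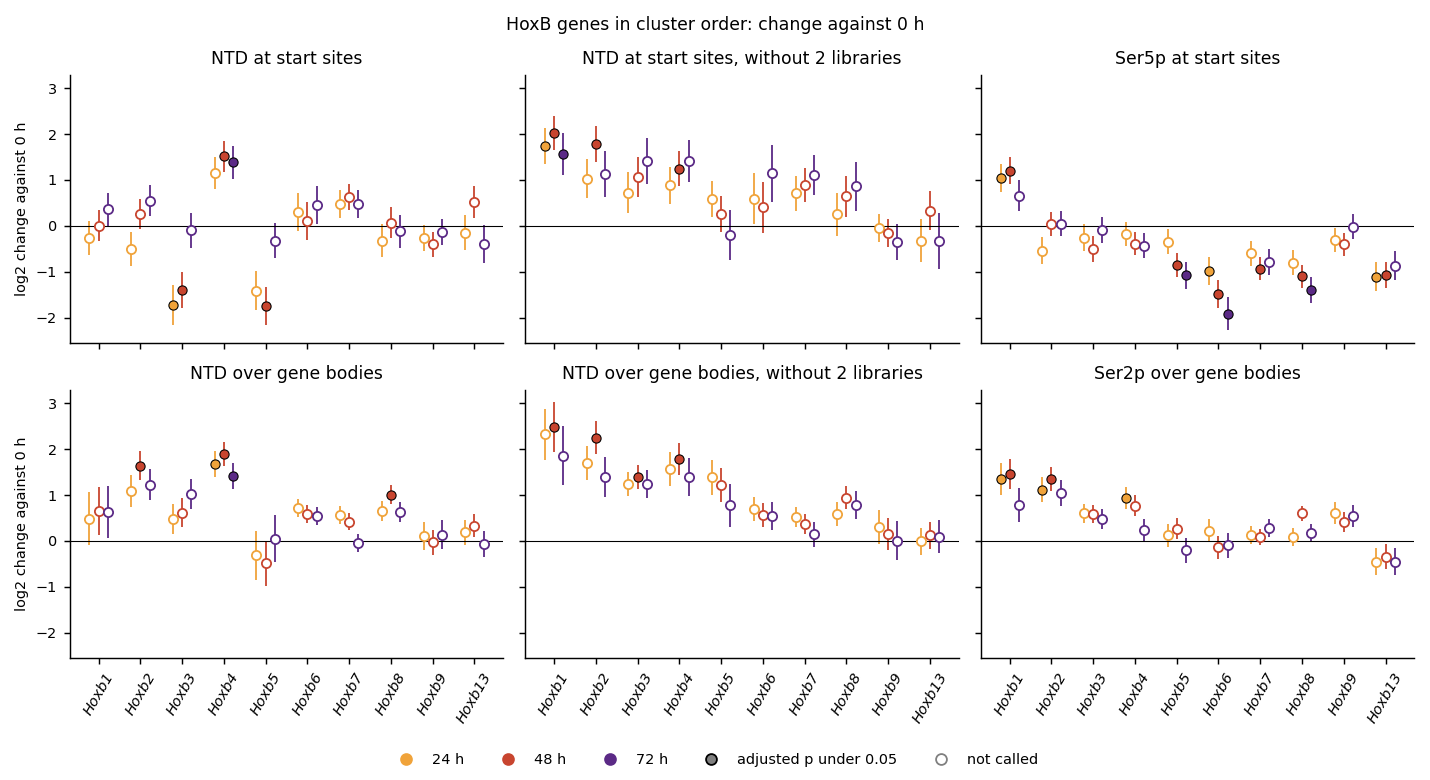
Log2 change against 0 h (points) with its standard error (bars) for each HoxB gene in cluster order, at 24, 48 and 72 h, for NTD and Ser5p at start sites and NTD and Ser2p over gene bodies, with the NTD panels repeated without 0 h replicate 4 and 72 h replicate 3. Filled points have an adjusted p under 0.05. Without the 2 libraries NTD changes at start sites at 48 h are 2.03 at Hoxb1, 1.79 at Hoxb2, 1.06 at Hoxb3, 1.24 at Hoxb4 and 0.26 at Hoxb5. The Ser5p panel uses all Ser5p libraries, and its lowest value is at Hoxb6 (-1.92 at 72 h).

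An interaction term of antibody with time tested whether Ser5p changed otherwise than total Pol II. At Hoxb4 it did at 48 h. Ser5p at this promoter was 27.5 and 48.3 CPM at 0 h and 29.9, 32 and 17.2 CPM at 48 h, while NTD went from 10.9 and 6.55 CPM to 20.8, 27 and 24.8 CPM. The difference of the log2 changes was -1.96 ± 0.45 (adjusted p = 0.0305, and 0.384% of transcripts were called lower). It was kept in 28 of 35 fits without 1 library. The 7 others left out NTD replicate 4 of 0 h (-1.55, adjusted p = 0.522) or 2 h, NTD 48 h replicate 2 or 3, Ser5p 0 h replicate 4, Ser5p 24 h replicate 2 or Ser5p 48 h replicate 3. Over all 35 fits it ranged from -2.27 to -1.52. Hoxb7 at 48 h (-1.62, adjusted p = 0.0526), Hoxb6 at 72 h (-2.42, adjusted p = 0.057), Hoxb4 at 72 h (-1.86, adjusted p = 0.0904) and Hoxb13 at 48 h (-1.64, adjusted p = 0.099) did not pass. No other member was called at any time. For Ser2p against NTD over gene bodies edgeR called 0 members and 0% of all transcripts, and at an unadjusted p under 0.05 there were 3 higher and 1 lower of 30 tests at 2 to 6 h and 0 higher and 3 lower of 30 at 24 to 72 h.

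Of the noncoding genes in and beside the cluster, Hoxb3os is not used here, and 4 were in the tables. The lncRNA gene Hoxb5os had 3.94 ± 0.959 CPM (SD, n = 2) of NTD at its start site at 0 h and 11.9 ± 9.81 CPM at 72 h, a log2 change of 1.31 with an adjusted p = 0.0752. Mir10a, which encodes a microRNA conserved at this place in Hox clusters, had 33.3 ± 13.8 CPM of Ser5p at 0 h and 17.6 ± 1.77 CPM at 72 h (-0.77, adjusted p = 0.0753). Mir196a-1, between Hoxb9 and Hoxb13, had 9.64 ± 3.9 CPM of Ser5p at 0 h and 5.69 ± 1.43 CPM at 48 h (-0.65, adjusted p = 0.327). Gm53, its neighbour, had 20.9 ± 7.33 and 13.1 ± 1.79 CPM (-0.53, adjusted p = 0.231). Adjusted p was 0.0752 or more for these 4 genes in each table and contrast tested with edgeR.

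The HoxC and HoxD clusters give the setting of the HoxB changes. For Ser5p at 48 h, 7 of 9 HoxC and 7 of 9 HoxD genes were called lower. Their median log2 changes were -1.13 and -1.14, where the median over all genes was -0.08. HoxB at that time had 1 gene higher and 5 lower of 10. For NTD over bodies at 48 h 1 of 9 HoxC (Hoxc4) and 2 of 9 HoxD genes (Hoxd1 and Hoxd8) were called higher, against 3 of 10 HoxB. The difference between clusters was not tested. Of 21 genes of RA receptors and regulators of Hox genes, 11 were called higher at start sites for NTD at 48 h, with a median of 0.94. Among them were Rarb, an RA receptor gene (18.4 to 146 CPM, log2 change 2.90), Cyp26a1, which degrades RA (2.42), the caudal gene Cdx1 (1.24) and the Hox cofactor genes Meis1, Meis2 and Pbx2. For Ser5p at 48 h Cdx2 and Pknox2 were called lower. Of 6 flanking genes on the Hoxb1 side none was called at 48 h at start sites. Of 7 on the Hoxb13 side Snf8 was called lower for NTD at 48 h, and for Ser5p Ube2z was called higher and Igf2bp1 lower.

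Genes were compared that had a mean of at least 5 CPM and at some time differed from 0 h by at least 1 in log2. Among these 3943 the genes with the Ser5p profile most similar over the 7 time means were sought. Among those for Hoxb1 were Scd2, a fatty acid desaturase gene (Pearson r = 0.99), and Sox4, a transcription factor gene of progenitor cells (0.958). For Hoxb4 they were Atoh1, a proneural gene (0.97), Lrrc31 (0.966) and Tmem200c (0.952). With 7 points from the same libraries these values describe likeness of profile only.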

How the data were processed

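Pol II ChIP-seq was analysed from 4 tables of RefSeq transcripts, for NTD and Ser5p at start sites and NTD and Ser2p over gene bodies. The authors deposited raw read counts per transcript and library. Next to the counts they deposited a normalized signal (the count times 1 factor per library), FPKM over gene bodies, log2 fold changes and adjusted p-values. The submitters' processing notes name Bowtie2, SAMtools, MACS2 and DESeq2 and the builds mm10 and dm6, without roles. The counting tool and the use of dm6 were not given in the sources used. The deposited timing calls have no stated rule.

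Counts were tested in R 4.3.3 with edgeR 4.0.16 (TMM scaling, filterByExpr by time, quasi-likelihood test, Benjamini-Hochberg adjustment over 31868, 32774, 31843 and 32123 transcripts), with no replicate block. Antibodies were compared by interaction fits. The members, gene lists and named genes were chosen with earlier results of these data known. Every member is described, and the 3 genes most like Hoxb1 and Hoxb4 were chosen by correlation. Some results are not reported here. The alternatives were DESeq2 1.42.0, its size factors in edgeR, the authors' factors, no filter on low counts, a replicate block and leaving out libraries. Leaving out libraries of the interaction fits other than NTD 0 h replicate 4 and 72 h replicate 3 was added after seeing the data. On simulated data for 72 against 0 h, a 4-fold change was recovered at 83% (NTD) and 88% (Ser5p) of start sites and at 99% and 98% of bodies (NTD, Ser2p). A 2-fold change was recovered at 34%, 32%, 87% and 84%. These rates are for randomly drawn transcripts without outlying libraries, and were not measured for the HoxB members. Samples with H3K27ac, H3K27me3, H3K4me1 or input were not used here.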

Additional observations from a re-analysis of the deposited data

Results flagged for a closer look

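At Hoxb4 the change of Ser5p at the start site between 0 and 48 h differed from that of total Pol II by -1.96 ± 0.45 on the log2 scale (interaction of antibody and time, edgeR's quasi-likelihood test, adjusted p = 0.0305). Ser5p was 27.5 and 48.3 CPM at 0 h and 17.2 to 32 CPM at 48 h, while NTD went from 6.55 and 10.9 CPM to 20.8 to 27 CPM. The result stands out because the same contrast moved one way with NTD, in all 3 libraries of 48 h, and not with Ser5p. Without NTD 0 h replicate 4 and 72 h replicate 3 it was -1.55 with an adjusted p = 0.419. Its cause was not tested.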

How the results depend on the processing

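Calls of members were counted over all times of a comparison. The share of all transcripts called also moved between fits and is not given here for each of them. A shift in the counts of this section is therefore not a result about the HoxB genes alone. Without NTD 0 h replicate 4 and 72 h replicate 3, gains of NTD at start sites against 0 h went from 2 to 5, losses from 11 to 0, and gains between later times from 0 to 1. In the same fit gains of NTD in bodies between later times went from 0 to 1, and losses of Ser5p against NTD from 1 to 0. DESeq2 gave 0 losses of NTD at start sites, 1 gain of Ser5p in place of 2, 8 gains of NTD in bodies in place of 5, and 1 in place of 0 between later times. The authors' factors gave 2 gains of NTD and 1 of Ser5p at start sites between later times, where there were 0, and 4 losses of Ser5p in place of 10. With a replicate block Ser5p had 4 losses and 1 gain between later times, Ser2p 0 gains in place of 5, and Ser5p against NTD 4 losses in place of 1.

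Same-numbered libraries did not deviate together in every pair (correlation over 0.1 in 17 of 32 pairs for NTD and 18 of 37 for Ser5p at start sites, 26 of 32 for NTD and 17 of 37 for Ser2p in bodies), so the numbers were not taken as a pairing.

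Leaving out 1 library gave 2 to 6 gains and 0 to 16 losses of NTD at start sites, and 0 to 2 gains between later times. It gave 1 to 3 gains, 1 to 22 losses and 0 to 1 later losses for Ser5p, and 1 to 7 gains for NTD in bodies. For Ser2p it gave 0 to 7 gains, with 0 to 2 gains and 0 to 1 losses between later times. For Ser5p against NTD it gave 0 to 12 gains and 0 to 7 losses.

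Without the 2 NTD libraries these start sites changed sign: Hoxb1 at 2, 4, 24 and 48 h (0.06, 0.21, 1.74 and 2.03), Hoxb2 at 6 h (0.05), Hoxb3 at 4, 6, 24 and 48 h (0.19, 0.18, 0.72 and 1.06) and Hoxb5 at 48 h (0.26). Hoxb1 at 48 h, at 0.00 with all libraries, was 0.23 with the authors' factors, 0.02 with DESeq2 and with its size factors, and 0.15 with the block, and at 24 h it was 0.13 with the authors' factors. Without 1 library, NTD at start sites ranged for Hoxb1 from -2.66 to 0.06 (2 h), -2.52 to 0.21 (4 h), -0.98 to 1.74 (24 h), -0.72 to 2.02 (48 h) and -0.42 to 2.38 (72 h). For Hoxb2 it ranged from -2.10 to 0.05 (6 h) and -0.38 to 1.79 (48 h). For Hoxb3 it ranged from -3.03 to 0.19 (4 h), -3.03 to 0.18 (6 h), -2.49 to 0.72 (24 h) and -2.17 to 1.07 (48 h), and for Hoxb5 from -2.46 to 0.26 (48 h). NTD in the body of Hoxb1 at 48 h ranged from -0.10 to 2.47, and was 2.48 without the 2 libraries. The cause was not tested. The calls of Hoxb1 (Ser5p, 48 h), Hoxb6 (Ser5p, 72 h) and Hoxb4 (NTD bodies, 48 h) held in every alternative run.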
